A study of Mus musculus with 6 samples.

Results

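Genes of the major histocompatibility complex (MHC) and of antigen presentation were followed in sorted splenic T cells of mice that received rapamycin or phosphate-buffered saline (PBS) after bone marrow transplantation. The set held the probe sets whose gene symbols all begin with H2-, the mouse MHC prefix, and the probe sets that name only B2m, Tap1, Tap2, Tapbp, Tapbpl, Cd74, Ciita, Nlrc5, Erap1, Calr or Pdia3. It comprised 64 of the 35556 probe sets on the array. Of these, 52 were assigned to class I, 11 to class II and 1, H2-Ke6, to neither class, since it encodes a steroid dehydrogenase that carries the H2- prefix by its position. The H2- symbols accounted for 35 probe sets, 6 of which list several genes, and the 11 partner genes for 29, of which 19 probe Nlrc5. Each probe set was kept on its own, because probe sets of one gene share their transcript and are not independent.

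The recipients were B6D2F1/J mice, hybrids of the C57BL/6 (B6) and DBA/2 strains, that had been lethally irradiated and reconstituted with B6 marrow depleted of T cells. Some recipients in the protocol also received spleen cells of B6 mice, and which of the 6 did is not stated in the labels. Rapamycin, which inhibits the growth kinase mTOR, was injected intraperitoneally in 3 mice on alternate days (1.5 mg/kg), and the 3 control mice were injected with PBS on the same schedule. Splenic CD3+ cells were sorted by flow cytometry on day 10, and their total RNA was hybridised on 1 whole-transcript Affymetrix array per mouse.

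MHC class I molecules present peptides from inside the cell to CD8+ T cells. The peptides are cut by the proteasome, carried into the endoplasmic reticulum by the TAP transporter, trimmed there and loaded on a heavy chain paired with beta-2 microglobulin. Class II molecules present peptides from the endosome to CD4+ T cells; their alpha and beta chains are escorted by the invariant chain, which the H2-DM factor helps to replace with peptide while H2-O restrains H2-DM. Nlrc5 and Ciita are the related transactivators of the class I and class II genes, and both pathways respond to interferon gamma. Nearly all nucleated cells carry class I, whereas class II belongs mainly to B cells, dendritic cells and macrophages, and mouse T cells make little of it. B6 mice carry a b haplotype that does not express H2-Ea, and DBA/2 mice a d haplotype that does, so F1 cells hold both. The labels do not say what share of the sorted cells came from the donor.

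The shared control elements of these genes lie just before their start sites, and the stretches shown here are those of some of the class II genes whose values are described below and of B2m. In class II promoters an X box, bound by the RFX complex and CREB, precedes a Y box, bound by NF-Y, and together they recruit Ciita. RefSeq promoter sequences of GRCm38.p6, from 250 bases before to 50 after each start, were found for 8 of the 12 class II symbols and 26 of the 38 class I symbols. Capitals mark the Y box core ATTGG, the letters AAC, any 2 bases and ATGATG, which lie within the X box of some class II genes and were read off these promoters after seeing them, and, in B2m, the interferon-stimulated response element letters GAAA, any 2 bases and GAAA. Each line is read 5′ to 3′ on the strand of the gene.

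H2-Aa (chr17:34287857-34287916, minus strand): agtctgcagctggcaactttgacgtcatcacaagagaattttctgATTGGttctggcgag
H2-Eb1 (chr17:34305763-34305822, plus strand): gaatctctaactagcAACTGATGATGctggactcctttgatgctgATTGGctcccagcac
H2-DMb1 (chr17:34153085-34153144, plus strand): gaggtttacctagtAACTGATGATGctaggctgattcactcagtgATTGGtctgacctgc
H2-DMb2 (chr17:34145114-34145173, plus strand): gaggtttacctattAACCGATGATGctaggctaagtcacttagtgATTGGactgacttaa
H2-Ob (chr17:34238803-34238862, plus strand): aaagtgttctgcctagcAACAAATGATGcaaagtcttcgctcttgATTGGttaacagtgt
H2-Oa (chr17:34092291-34092350, plus strand): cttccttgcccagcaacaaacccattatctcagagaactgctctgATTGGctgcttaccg
B2m (chr2:122147539-122147648, plus strand): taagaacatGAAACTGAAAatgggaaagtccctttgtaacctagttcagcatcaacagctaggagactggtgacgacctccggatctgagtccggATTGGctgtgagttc

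Searched on both strands, ATTGG was present in 7 of 8 class II promoters (87.5%) and in 22 of 26 class I promoters (84.6%), against 37.9% of the 27025 promoters in the table. H2-Eb2, which holds ATTGG 100 bases before its start, and the class II promoter without ATTGG are not among the stretches shown. All stretches shown were thus ones that hold ATTGG. The X box letters were read off the class II promoters, so their presence there was fixed in advance and is no independent support. AAC followed after 2 bases by ATGATG was present in 4 of the 8 class II promoters, those of H2-Eb1, H2-DMb1, H2-DMb2 and H2-Ob, in 0 of the 26 class I promoters and in 0.144% of all promoters. In those 4 genes it began 89, 92, 121 and 85 bases before the start, and the ATTGG shown after it began 59, 61, 90 and 57 bases before the start. GAAA followed after 2 bases by GAAA was present in 4 of 26 class I promoters (15.4%), those of B2m, Erap1, H2-T23 and H2-T22, in 0 of 8 class II promoters and in 3.49% of all promoters. These are matches of letters, and no binding was measured. The 2 H2-DMb genes, whose stretches both hold the X and Y box letters, are also listed together by a single probe set, so their expression cannot be told apart here.

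Values are log2 expression after RMA, and differences are rapamycin minus PBS on the log2 scale. Array medians lay between 6.03 and 6.17, and any pair of arrays correlated between 0.989 and 0.993 across probe sets. T cell markers were high: Cd3e, a chain of the T cell receptor complex, lay between 12.78 and 12.92, and all 10 measured T cell markers had mean levels above the median of all probe sets. B cell markers were low, with the B cell antigen receptor chain Cd79a at 4.96 to 5.51 and the CD20 gene Ms4a1 at 3.68 to 4.12, and 2 of the 13 measured markers above that median. Conventional dendritic cell markers had 3 of 10 above it. The macrophage genes Csf1r (9.05 to 9.91) and Cd68 (10.20 to 10.92) were well above the array medians, and 12 of the 13 measured monocyte and macrophage markers had mean levels above that median, as had all 10 neutrophil markers. A level above that median therefore does not set the T cell markers apart from the markers of these cells. The mean of the 10 neutrophil markers ran from 7.72 in PBS replicate 3 to 9.73 in rapamycin replicate 1. Rapamycin replicate 1 was the lowest mouse of the class II mean described below, and a link between these was not tested. Each array held a bulk sample, so fewer cells of a type and less RNA per cell cannot be told apart.

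No MHC or antigen presentation probe set passed the test between rapamycin and PBS. The test was limma's moderated test, adjusted by the Benjamini-Hochberg method over all 35556 probe sets, with a call at an adjusted p under 0.05. Of all probe sets 0 were called (0.0%), the smallest adjusted p was 0.376, and 1385 (3.9%) had an unadjusted p under 0.05. Of the 64 MHC and antigen presentation probe sets, 0 had an unadjusted p under 0.05, and limma's adjusted p was 1.0 for each. The 2 classes differed in how widely their values were spread: the residual SD within groups had a median of 0.115 for class I and 0.318 for class II, against 0.135 for all probe sets. As a result class I differences were bounded closely and class II differences were not. The class I probe sets include the 19 of Nlrc5, and 40 of the 52 had mean levels above the median of all probe sets. Near background RMA compresses differences, so a narrow interval of a low probe set says less about expression.

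**Figure D1:**
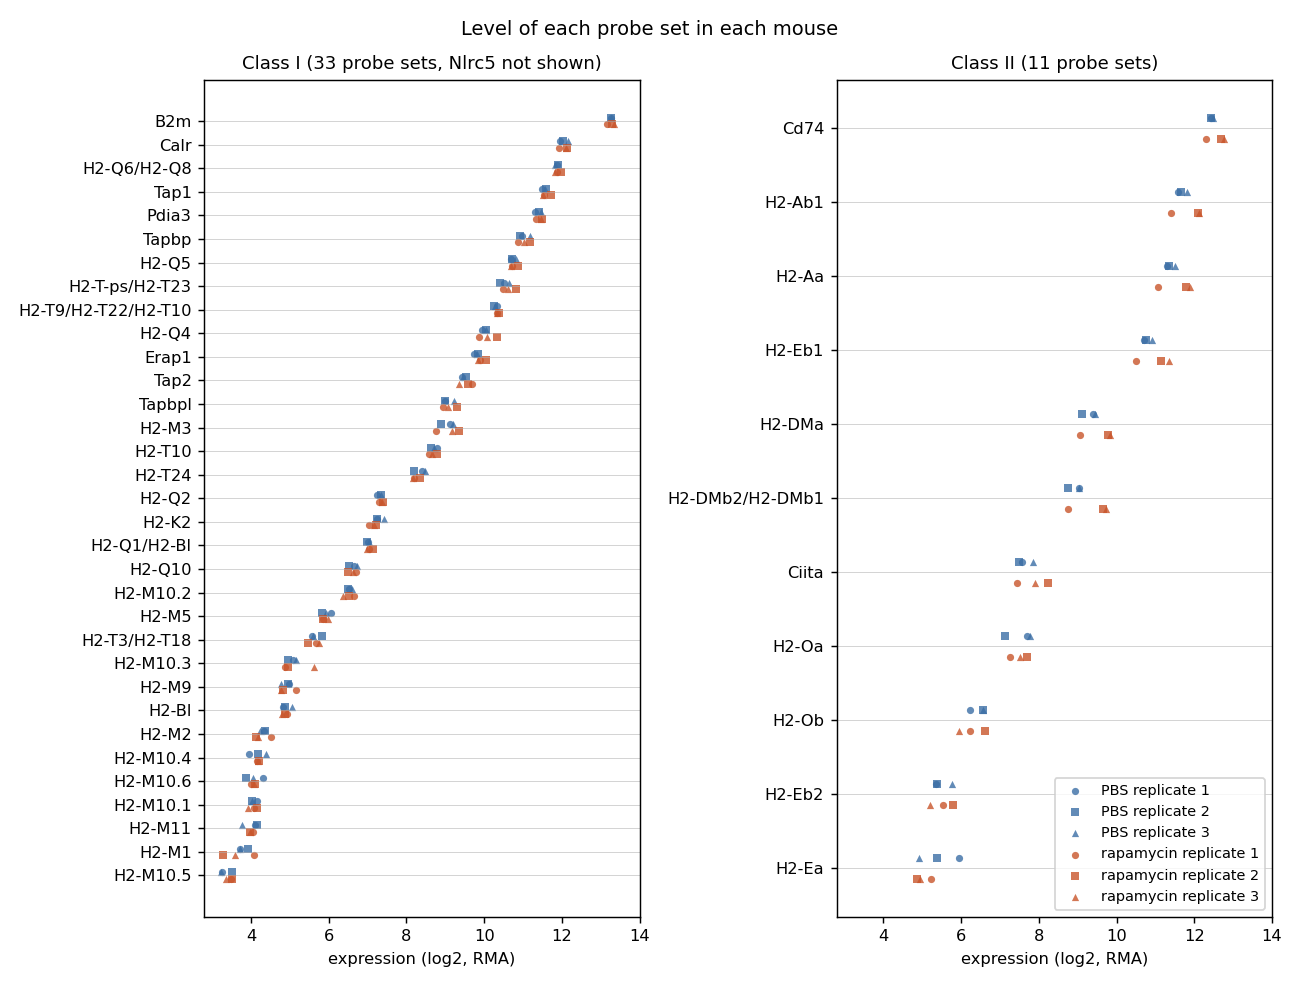
Level of each class I probe set other than Nlrc5 (left) and each class II probe set (right) in each of the 6 mice, in log2 expression on the horizontal axis, with PBS mice in blue and rapamycin mice in orange. The points of class I probe sets lie close together, while in most class II probe sets rapamycin replicate 1 lies to the left of the PBS mice and rapamycin replicates 2 and 3 to the right; positions of different probe sets are not comparable as amounts of RNA.

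In class I, 24 probe sets were higher and 28 lower with rapamycin, with a median difference of -0.003 against -0.012 for all probe sets. Differences ran from -0.17 to 0.13. The 95% interval of the difference lay within 1.5-fold in either direction for 51 of the 52 class I probe sets and within 2-fold for all 52, whereas 29248 of all 35556 probe sets had intervals within 1.5-fold. Without the 19 Nlrc5 probe sets the class I median was 0.01, with 19 higher and 14 lower.

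The light chain B2m, which pairs with every class I heavy chain, measured 13.26, 13.26 and 13.25 in PBS replicates 1 to 3 and 13.16, 13.28 and 13.33 in rapamycin replicates 1 to 3. Values are given in this order of mice from here on. The PBS mice lay within the range of the rapamycin mice. Its difference was 0.00 (SE 0.08, 95% interval -0.18 to 0.18), which bounds the ratio of rapamycin to PBS between 0.883 and 1.13.

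The classical heavy chains H2-K1 and H2-D1 were represented by 2 probe sets that also list LOC547349 and so fell outside the symbol rule; their values are given for completeness. The first measured 12.06, 12.05 and 12.14 with PBS and 12.03, 12.19 and 12.08 with rapamycin, a difference of 0.02 (95% interval -0.17 to 0.20). The other measured 11.82, 11.76 and 11.89 with PBS and 11.76, 11.91 and 11.86 with rapamycin, a difference of 0.02 (95% interval -0.17 to 0.21). In both, the groups overlapped, and rapamycin replicate 1 was the lowest and rapamycin replicate 2 the highest mouse.

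Nonclassical heavy chains of the Q region, which include the Qa-2 antigens, had 6 probe sets with differences between -0.04 and 0.07. Of these, H2-Q4 differed by 0.07 and H2-Q10, best known as a secreted liver product, by -0.04. In the T region, 6 probe sets ran from -0.13 to 0.12. The probe set of H2-T-ps and H2-T23, the latter encoding Qa-1, which presents leader peptides of other class I chains, measured 10.52, 10.40 and 10.64 with PBS and 10.48, 10.83 and 10.60 with rapamycin, a difference of 0.12 (95% interval -0.16 to 0.40). The groups overlapped, and rapamycin replicate 2 was highest.

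The probe set shared by H2-T9, H2-T22 and H2-T10, of which H2-T10 and H2-T22 encode ligands of some gamma delta T cell receptors, measured 10.32, 10.26 and 10.27 with PBS and 10.34, 10.38 and 10.32 with rapamycin. It was the only class I probe set in which every rapamycin mouse lay above every PBS mouse, a pattern met by 3.09% of all probe sets, and its difference was 0.06 (95% interval -0.10 to 0.22, unadjusted p = 0.388 and adjusted p = 1.0 in limma). H2-T24 measured 8.41, 8.20 and 8.47 with PBS and 8.18, 8.34 and 8.16 with rapamycin, a difference of -0.13 (95% interval -0.37 to 0.11).

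H2-K2, a class I heavy chain pseudogene, measured 7.24, 7.24 and 7.43 with PBS and 7.03, 7.21 and 7.16 with rapamycin. All rapamycin mice lay below all PBS mice, as in 5.44% of all probe sets, and no other class I probe set did so. Its difference of -0.17 (95% interval -0.39 to 0.05) had the smallest unadjusted p of the class I probe sets, 0.111 in limma. The gap between PBS replicate 2 and rapamycin replicate 2 was small beside the spread within either group.

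The M region, whose genes encode H2-M3, which presents formylated peptides, and heavy chains of restricted expression such as the H2-M10 family of the vomeronasal organ, had 12 probe sets with differences between -0.14 and 0.12. Only 2 of the 12 had mean levels above the median of all probe sets. H2-M3 measured 9.11, 8.88 and 9.19 with PBS and 8.77, 9.36 and 9.18 with rapamycin, a difference of 0.04 (95% interval -0.36 to 0.44). H2-M10.5 measured 3.24, 3.51 and 3.22 with PBS and 3.48, 3.50 and 3.36 with rapamycin, a difference of 0.12 (95% interval -0.13 to 0.37). H2-M1 was the single class I probe set whose interval, -0.62 to 0.34, reached beyond 1.5-fold.

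**Figure D2:**
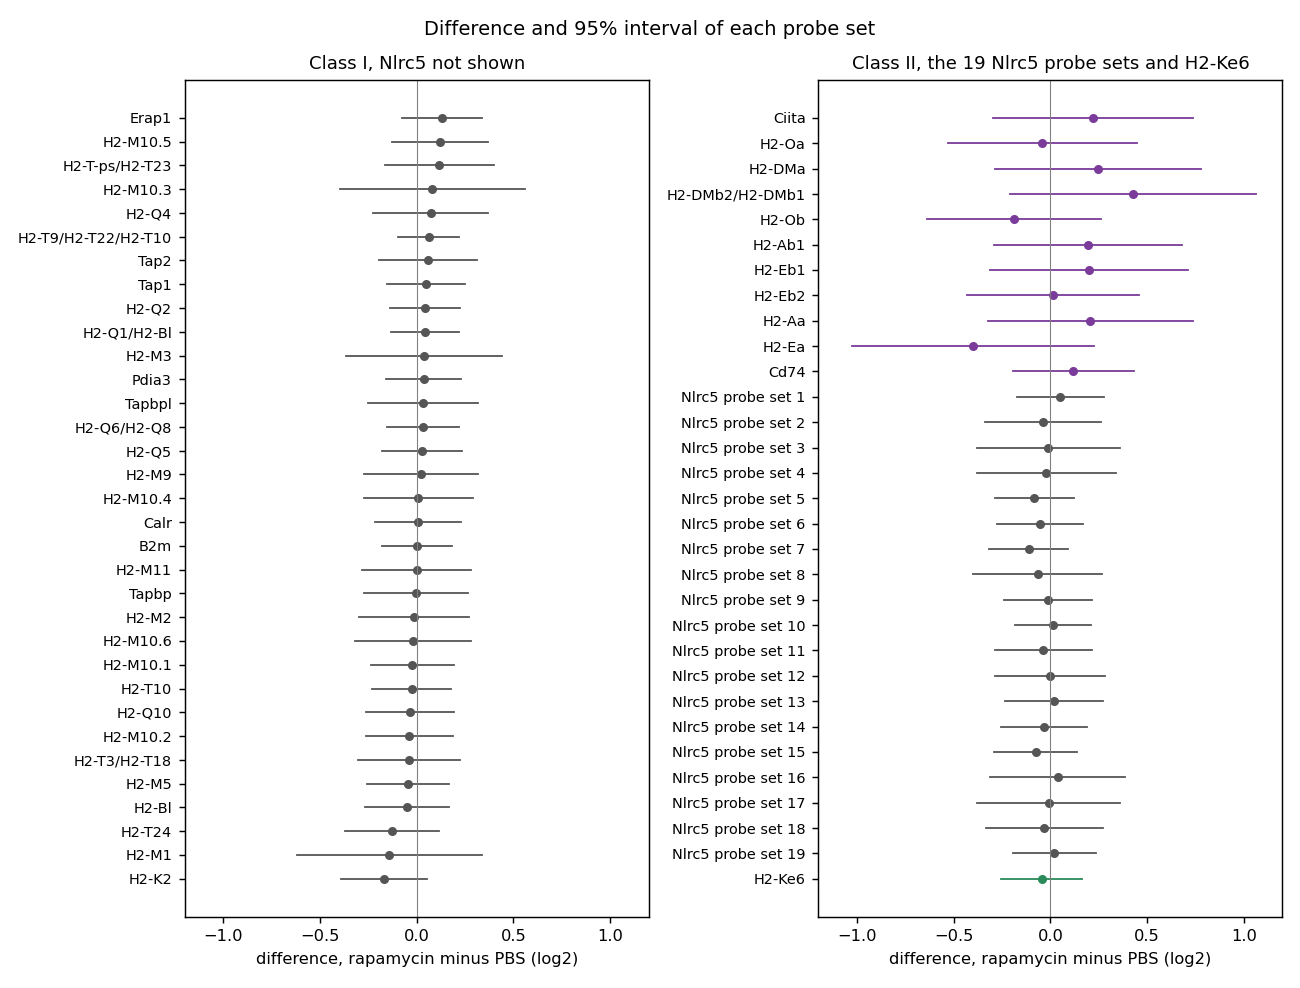
Difference between rapamycin and PBS (log2, points) with its 95% interval (bars) for the class I probe sets other than Nlrc5, ordered by difference (left), and for the class II probe sets in purple, the Nlrc5 probe sets in grey and H2-Ke6 in green (right). Every interval includes 0, and the class II intervals are wider, with the probe set of H2-DMb2 and H2-DMb1 farthest to the right at 0.43 and H2-Ea farthest to the left at -0.40.

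Peptide supply and loading genes differed little. Tap1, a subunit of the peptide transporter, measured 11.49, 11.58 and 11.56 with PBS and 11.54, 11.72 and 11.52 with rapamycin, a difference of 0.05 (SE 0.08, 95% interval -0.15 to 0.25). Tap2, its partner subunit, differed by 0.06 (95% interval -0.20 to 0.31). Erap1, the peptidase that trims peptides in the endoplasmic reticulum, measured 9.73, 9.85 and 9.82 with PBS and 9.89, 10.05 and 9.85 with rapamycin. Its difference of 0.13 (95% interval -0.07 to 0.33) was the highest of class I, but rapamycin replicate 3 lay below PBS replicate 2.

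The 4 loading factors lay between -0.01 and 0.04. They are the chaperone Calr, the oxidoreductase Pdia3, tapasin (Tapbp), which bridges TAP and the heavy chain, and the tapasin-related editor Tapbpl. Tapbp differed by -0.01 (95% interval -0.27 to 0.26) and Pdia3 by 0.04 (95% interval -0.16 to 0.23). Each had overlapping groups. H2-Ke6, the dehydrogenase gene outside both classes, measured 8.17 ± 0.04 with PBS and 8.12 ± 0.12 with rapamycin (SD, n = 3 each), a difference of -0.05 (95% interval -0.25 to 0.16).

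Nlrc5, the class I transactivator, was covered by 19 probe sets with mean levels from 8.34 to 11.56. Their differences ran from -0.11 to 0.05, 5 higher and 14 lower, and all 19 intervals lay within 1.5-fold. The 2 with the smallest p measured 9.84, 9.96 and 9.78 with PBS against 9.76, 9.83 and 9.65 with rapamycin (difference -0.11), and 8.60, 8.74 and 8.61 with PBS against 8.60, 8.64 and 8.45 with rapamycin (difference -0.08). Both had overlapping groups.

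The 19 Nlrc5 probe sets followed each other from mouse to mouse, as parts of one transcript. Rapamycin replicate 3 was the lowest mouse in 18 of them, and rapamycin replicate 1 the highest in 12. Their mean was 9.75, 9.87 and 9.66 with PBS and 9.88, 9.76 and 9.58 with rapamycin. The spread among the 3 rapamycin mice (SD 0.15) was thus larger than the -0.02 between the group means. The mean over all 35556 probe sets was 6.48, 6.52 and 6.43 with PBS and 6.49, 6.45 and 6.45 with rapamycin, also highest in PBS replicate 2 and rapamycin replicate 1, and its part in the Nlrc5 values was not tested.

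**Figure D3:**
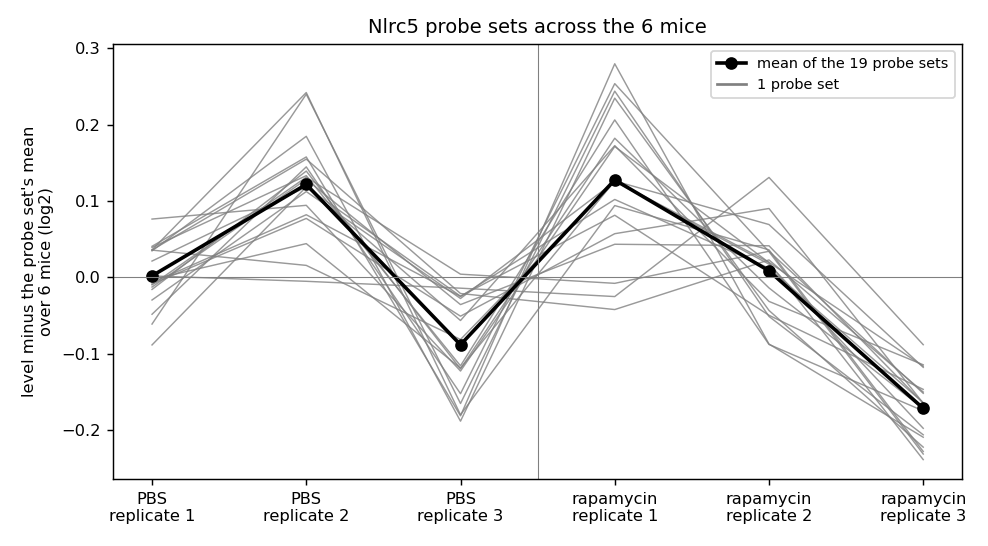
Level of each of the 19 Nlrc5 probe sets in each mouse minus that probe set's mean over the 6 mice (log2, grey lines), with their mean in black; the lines join values of 1 probe set and imply no order of mice. PBS replicate 2 and rapamycin replicate 1 are the highest points of the mean and rapamycin replicate 3 the lowest.

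In class II, 8 probe sets were higher and 3 lower with rapamycin, with a median difference of 0.20 against -0.012 for all probe sets. Differences ran from -0.40 to 0.43, and 0 of the 11 had groups that did not overlap, against 3.09% of all probe sets in the higher and 5.44% in the lower direction, shares at which a count of 0 in 11 says little. The intervals lay within 1.5-fold for 3 of the 11 and within 2-fold for 9. A level 1.5-fold higher with rapamycin was inside the interval of 6 of the 11, and a level 1.5-fold lower inside that of 2, H2-Ob and H2-Ea. The smallest unadjusted p of the class was 0.154 in limma, with an adjusted p of 1.0.

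Of the class II molecules of the cell surface, A and E, both chains of A and the beta chain H2-Eb1 of E varied together across mice. H2-Aa, the alpha chain of A, measured 11.29, 11.34 and 11.49 with PBS and 11.06, 11.79 and 11.89 with rapamycin, a difference of 0.21 (SE 0.22, 95% interval -0.32 to 0.74, adjusted p = 1.0 in limma). H2-Ab1, its beta chain, measured 11.58, 11.64 and 11.80 with PBS and 11.40, 12.09 and 12.13 with rapamycin, a difference of 0.20 (95% interval -0.29 to 0.68). H2-Eb1, the beta chain of E, measured 10.72, 10.76 and 10.90 with PBS and 10.50, 11.14 and 11.34 with rapamycin, a difference of 0.20 (95% interval -0.31 to 0.71). In all 3, rapamycin replicate 1 was the lowest of the 6 mice and rapamycin replicates 2 and 3 were the highest, so the rapamycin mice enclosed the PBS mice on both sides.

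The remaining E chains had another pattern. H2-Ea, the alpha chain of E that B6 mice do not express, measured 5.94, 5.38 and 4.90 with PBS and 5.23, 4.87 and 4.93 with rapamycin. Its difference of -0.40 (95% interval -1.02 to 0.22) was the lowest of all 64, its groups overlapped, and PBS replicate 1 stood above the other mice. Without PBS replicate 1 its difference was -0.14, and without PBS replicate 3 it was -0.65. H2-Eb2, a further E beta gene, measured 5.35, 5.37 and 5.76 with PBS and 5.53, 5.80 and 5.20 with rapamycin, a difference of 0.02. Both had mean levels below the median of all probe sets. How well the array's probes match the d haplotype was not tested.

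Cd74, the invariant chain, which chaperones the class II chains to the endosome, measured 12.44, 12.44 and 12.49 with PBS and 12.29, 12.68 and 12.75 with rapamycin, a difference of 0.12 (95% interval -0.19 to 0.43). The PBS mice lay close together (SD 0.03), and the rapamycin mice (SD 0.25) again lay on both sides of them.

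Peptide exchange in the endosome depends on H2-DM, and H2-DMa, its alpha chain, measured 9.39, 9.11 and 9.46 with PBS and 9.06, 9.79 and 9.84 with rapamycin, a difference of 0.25 (95% interval -0.29 to 0.78). The probe set of the beta chains H2-DMb2 and H2-DMb1 measured 9.02, 8.76 and 9.04 with PBS and 8.74, 9.64 and 9.72 with rapamycin. Its difference of 0.43 (SE 0.27, 95% interval -0.21 to 1.06) corresponds to 1.34-fold and was the highest of all 64, with an unadjusted p of 0.154 and an adjusted p of 1.0 in limma. In both, rapamycin replicate 1 was lowest and replicates 2 and 3 were highest.

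The H2-O genes, whose product restrains H2-DM, did not share this order. H2-Oa measured 7.69, 7.12 and 7.78 with PBS and 7.25, 7.70 and 7.52 with rapamycin, a difference of -0.04 (95% interval -0.53 to 0.45), whose sign turned when any of 3 mice was left out. H2-Ob, which is known from B cells in particular, measured 6.23, 6.57 and 6.56 with PBS and 6.23, 6.61 and 5.95 with rapamycin, a difference of -0.19 (95% interval -0.64 to 0.26). The rapamycin mice held both the highest and the lowest H2-Ob value.

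Ciita, the class II transactivator, measured 7.57, 7.48 and 7.84 with PBS and 7.42, 8.25 and 7.89 with rapamycin, a difference of 0.22 (SE 0.21, 95% interval -0.30 to 0.74). As with H2-Aa, H2-Ab1 and H2-Eb1, rapamycin replicate 1 was the lowest mouse and replicates 2 and 3 were above every PBS mouse.

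**Figure D4:**
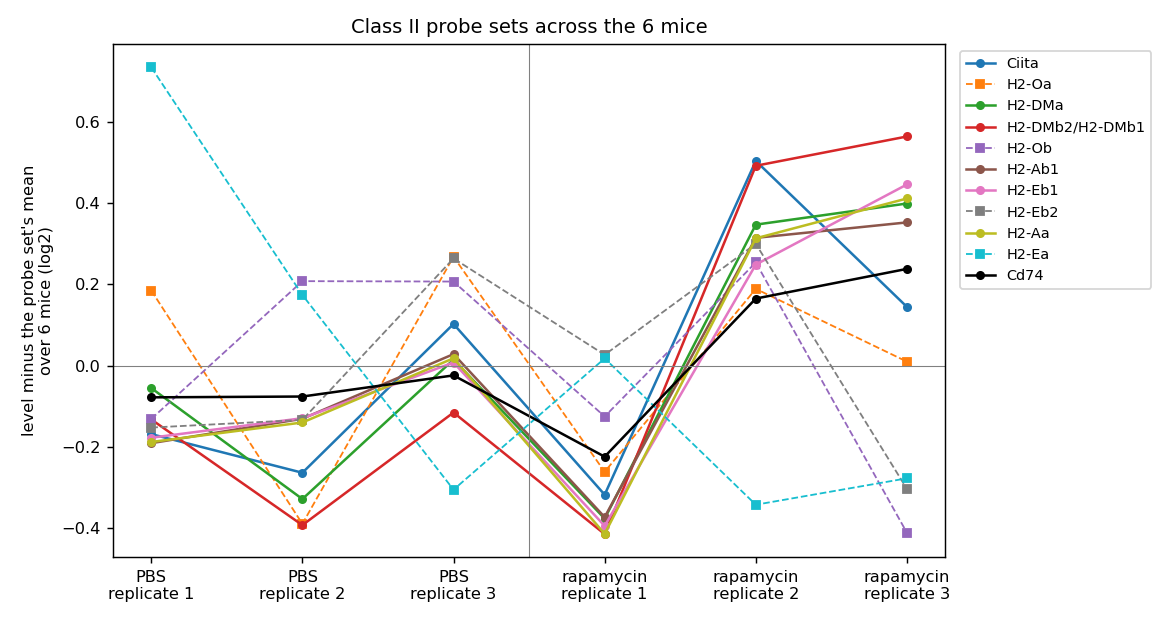
Level of each class II probe set in each mouse minus that probe set's mean over the 6 mice (log2); solid lines mark the 7 probe sets in which rapamycin replicate 1 is the lowest mouse and broken lines the other 4, and the lines imply no order of mice. The solid lines are lowest in rapamycin replicate 1, and in rapamycin replicates 2 and 3 they lie above every PBS mouse.

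Rapamycin replicate 1 was thus the lowest mouse in 7 of the 11 class II probe sets (63.6%), against 20.5% of all probe sets, and the highest mouse was rapamycin replicate 3 in 6 and rapamycin replicate 2 in 3. These 7 were H2-Aa, H2-Ab1, H2-Eb1, H2-DMa, the H2-DMb probe set, Cd74 and Ciita. Within each of them the SD was larger among rapamycin mice, 0.25 to 0.55, than among PBS mice, 0.03 to 0.19. These 7 were picked by the place of 1 rapamycin mouse, so the larger SD follows in part from the pick. Outside them the SD was larger with PBS for H2-Ea (0.52 against 0.19) and H2-Oa (0.36 against 0.23). It was larger with rapamycin for H2-Eb2 (0.30 against 0.24) and H2-Ob (0.33 against 0.20). The mean of the 11 class II probe sets was 8.84, 8.73 and 8.91 with PBS and 8.61, 9.12 and 9.01 with rapamycin. The mean of the 52 class I probe sets was 8.48, 8.52 and 8.47 with PBS (SD 0.03) and 8.53, 8.52 and 8.42 with rapamycin (SD 0.06), and it joins members of different order. Rapamycin replicate 1 was the highest mouse in 12 of the 19 Nlrc5 probe sets and the lowest in none of them, whereas among the other 33 class I probe sets it was the lowest in 9 (27.3%), including B2m and 3 of the 4 loading factors.

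The class II values rested on single mice. Without rapamycin replicate 1 the class II median was 0.43, against -0.023 for all probe sets; without rapamycin replicate 2 it was 0.07 and without rapamycin replicate 3 it was 0.05. With rapamycin replicate 1 left out, both remaining rapamycin mice lay above every PBS mouse in 7 of 11 class II probe sets, against 9.32% of all probe sets, and the same 7 had an unadjusted p under 0.05 in the upward direction, against 2.22% of all probe sets. The H2-DMb probe set then differed by 0.74 (95% interval 0.46 to 1.03, unadjusted p = 0.000935), H2-DMa by 0.50, H2-Aa by 0.47, H2-Eb1 by 0.45, H2-Ab1 and Ciita by 0.43 and Cd74 by 0.26. None of them passed even so, each with an adjusted p of 0.831 in limma. The mouse was left out after its values had been seen, so these values describe 2 rapamycin mice and carry no call.

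Markers of the cells that normally carry class II were set beside these values. The mean of the 13 measured B cell markers was 5.31, 5.30 and 5.19 with PBS and 5.23, 5.28 and 5.16 with rapamycin. Of these 13 markers, 6 were higher and 7 lower with rapamycin, with a median difference of -0.007. Cd79b, a chain of the B cell antigen receptor complex, alone had all rapamycin mice below all PBS mice, as in 5.44% of all probe sets. Its difference was -0.54 (95% interval -0.82 to -0.27, unadjusted p = 0.00271, adjusted p = 1.0 in limma). The other receptor chain, Cd79a, differed by -0.05 and Ms4a1 by 0.05. The mean of the 10 conventional dendritic cell markers was 5.83, 5.92 and 5.96 with PBS and 5.81, 5.82 and 5.84 with rapamycin. The mean of the 13 monocyte and macrophage markers was 8.81, 8.44 and 8.40 with PBS and 8.10, 8.11 and 8.59 with rapamycin. Rapamycin replicate 1 was the lowest mouse of the dendritic cell mean and of the monocyte and macrophage mean, and rapamycin replicate 3 that of the B cell mean. The 13 monocyte and macrophage markers did not share one order: rapamycin replicate 1 was the lowest mouse in 4, Adgre1, Csf1r, Cd68 and Fcgr1, and rapamycin replicate 2 in another 4, Mertk, C1qa, C1qb and C1qc. The highest mouse was rapamycin replicate 3 in 8 of the 13 (61.5%), against 12.3% of all probe sets. In class II it was rapamycin replicate 3 in 6 of 11. Of the other markers PBS replicate 1 was highest in 3 and PBS replicate 2 in 2. The high-affinity Fc receptor Fcgr1 measured 8.15, 7.64 and 8.43 with PBS and 7.54, 8.43 and 8.84 with rapamycin, and Csf1r 9.52, 9.33 and 9.57 with PBS and 9.05, 9.43 and 9.91 with rapamycin. Of the 13 monocyte and macrophage markers, 4 were higher and 9 lower with rapamycin, with a median difference of -0.16. Spic, a factor of red pulp macrophages, measured 7.51, 6.70 and 6.93 with PBS and 5.77, 5.84 and 5.50 with rapamycin, a difference of -1.34 (95% interval -1.86 to -0.82, unadjusted p = 0.000604, adjusted p = 1.0 in limma). Spic alone had all rapamycin mice below all PBS mice, as in 5.44% of all probe sets. Lyz2 alone had all rapamycin mice above all PBS mice, as in 3.09% of all probe sets. The difference of Lyz2 was 0.29 (95% interval -0.01 to 0.58). Neutrophil markers averaged 9.16, 8.95 and 7.72 with PBS and 9.73, 8.31 and 8.84 with rapamycin. The part of any of these cells in the class II values was not tested.

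The mean of the interferon gamma targets varied across mice in nearly the same order as the class II mean. Of the 20 genes listed, 12 were measured, and all 12 were higher with rapamycin, against 16099 of all 35556 probe sets. The median difference was 0.18, against -0.012 for all probe sets. Of the 12, 0 had an unadjusted p under 0.05 in limma, against 3.9% of all probe sets. The mean of the 12 targets was 9.64, 9.67 and 9.97 with PBS and 9.63, 10.23 and 10.07 with rapamycin. It was lowest in rapamycin replicate 1 and highest in rapamycin replicate 2, as for the class II mean. The single targets followed this less closely: rapamycin replicate 1 was the lowest mouse in 5 of the 12, and PBS replicate 1 in another 5. Over all probe sets these shares were 20.5% and 15.6%. Rapamycin replicate 2 was the highest mouse in 10 of the 12, against 14.8% of all probe sets, so the 12 signs are not independent. In class II the highest mouse was rapamycin replicate 3 in 6 of the 11 probe sets. Cxcl9, a chemokine for activated T cells, measured 9.18, 9.83 and 10.17 with PBS and 9.88, 10.48 and 10.64 with rapamycin, a difference of 0.61 (95% interval -0.11 to 1.33). The guanylate-binding protein gene Gbp5 measured 8.96, 8.90 and 9.10 with PBS and 9.03, 9.58 and 9.28 with rapamycin, a difference of 0.31 (95% interval -0.04 to 0.67). The part of interferon gamma signalling in the class II values was not tested.

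**Figure D5:**
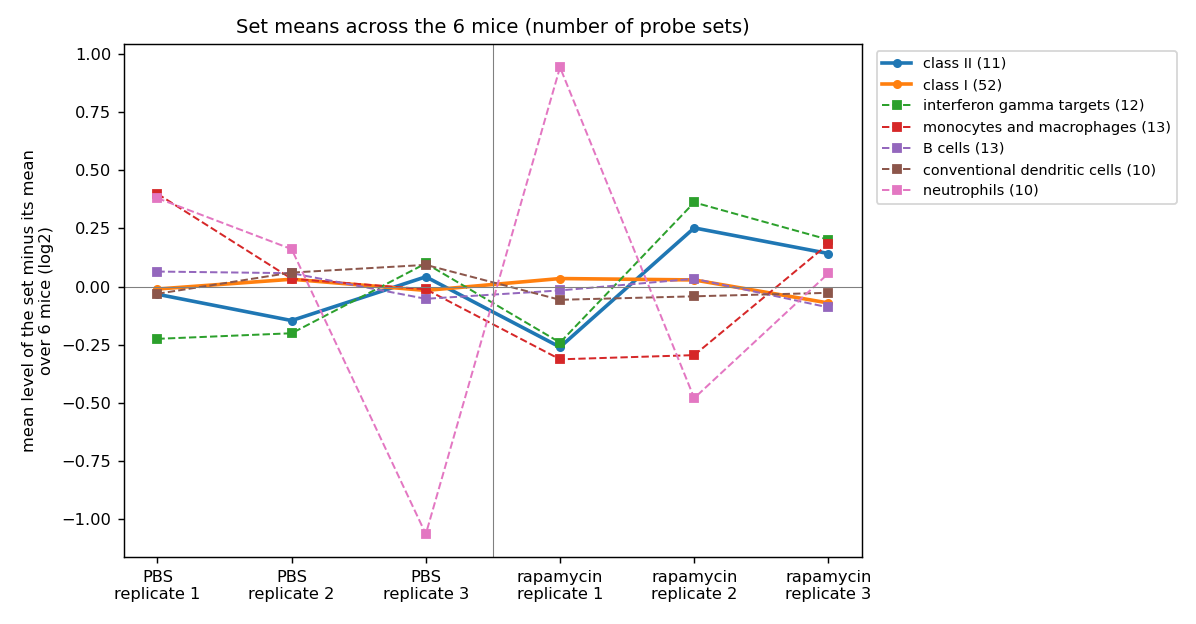
Mean level of the class I and class II probe sets (solid lines) and of marker lists (broken lines, number of probe sets in brackets) in each mouse minus that set's mean over the 6 mice (log2); the lines imply no order of mice. Class II and the interferon gamma targets are lowest in rapamycin replicate 1 and highest in rapamycin replicate 2, class I and the B cell markers stay near 0, and the neutrophil markers are highest in rapamycin replicate 1 and lowest in PBS replicate 3.

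Partners of class I outside the symbol rule included the immunoproteasome subunits and chaperones, and the list also held the CD8 chains, which are class I coreceptors, and Lag3, a receptor of class II on activated T cells. Of 19 listed genes 18 were measured, 11 higher and 7 lower with a median difference of 0.04. An unadjusted p under 0.05 in limma was found for 0 of the 18, against 3.9% of all probe sets, a share at which this count says little. Without Cd8a, Cd8b1 and Lag3, 9 of 15 were higher and 6 lower, with differences between -0.11 and 0.12 and a median of 0.05. Rapamycin replicate 1 was the lowest mouse in 9 of these 15, against 20.5% of all probe sets. Psmb8, an immunoproteasome subunit, differed by 0.05 and Psmb9 by 0.00. The smallest p values of the whole list were those of Lag3, which measured 10.14, 10.46 and 10.57 with PBS and 10.44, 10.90 and 10.53 with rapamycin (difference 0.23), and of Cd8b1, the CD8 beta chain, with a difference of -0.13. Cd1d1, which presents lipids, differed by 0.12 and Tpp2, a cytosolic peptidase, by -0.05.

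Among the partners of class II processing, all 12 listed genes were measured, 9 higher and 3 lower with a median difference of 0.05. The only one with an unadjusted p under 0.05 in limma, against 3.9% of all probe sets, was Lgmn, the endosomal protease legumain. Lgmn was also the only one whose groups did not overlap, against 5.44% of all probe sets in the lower direction. It measured 8.05, 7.92 and 7.77 with PBS and 7.20, 7.01 and 7.69 with rapamycin, a difference of -0.62 (95% interval -1.05 to -0.18, unadjusted p = 0.013, adjusted p = 1.0 in limma). Cd83, a marker of activated antigen-presenting cells that is also found on activated T cells, differed by 0.44 (95% interval -0.20 to 1.07), Ctsl, which degrades the invariant chain in thymic epithelium, by 0.22 and Ctsb, a cathepsin, by -0.12. Ctss, the cathepsin that cleaves the invariant chain in bone marrow-derived cells, measured 11.06, 11.07 and 11.19 with PBS and 10.94, 11.29 and 11.65 with rapamycin. Its lowest mouse was rapamycin replicate 1, as for H2-Aa, H2-Ab1 and H2-Eb1. That mouse was the lowest in 5 of the 12 class II partners (41.7%), against 20.5% of all probe sets.

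Regulators of MHC promoters numbered 22 measured of 24 listed, with 11 higher, 11 lower and a median difference of 0.01. An unadjusted p under 0.05 in limma was found for 0 of the 22, against 3.9% of all probe sets, a share at which this count says little. The groups did not overlap in 2 of the 22 in the lower direction and in 1 in the higher, against 5.44% and 3.09% of all probe sets. Rapamycin replicate 1 was the lowest mouse in 10 of the 22, against 20.5% of all probe sets. In the RFX complex, which binds the X box, Rfxank differed by -0.17 and had all rapamycin mice below all PBS mice, Rfx5 differed by -0.15 and Rfxap by 0.09. The kinase Jak1, which relays interferon signals, differed by -0.14 and also had groups apart in the lower direction. Hdac2, a histone deacetylase, differed by 0.15 with groups apart in the higher direction, and Irf1, the interferon-induced factor that binds the response element, by 0.13.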

How the data were processed

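RNA of 6 mice, 3 per group, was measured on 1 array each, and groups and replicate numbers come from the sample titles. The authors deposited log2 expression values made with Affymetrix Expression Console and RMA, per the submitters' processing notes; tool versions and array build: not given in the sources used here. RMA subtracts background, equalises probe intensities across arrays and summarises probes, so a shift shared by most genes is removed and differences near background are compressed. Array data give no counts, and the number of arrays limits the precision.

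Symbols came from the platform's probe table, and 50 of 51 member gene identifiers were found in the RefSeq gene table. The members and lists were chosen with earlier results of these data known. All 35556 probe sets were fitted on treatment group alone by limma's lmFit and eBayes (version 3.58.1, R 4.3.3; two-sided, moderated degrees of freedom 6.47), with intervals at the 95% level. An exact permutation test of 3 against 3 mice cannot go below 0.1 and was not used. Values in every mouse are given for the central chains and factors and the 4 smallest p values per direction and class, and of each pathway list the 2 genes with the smallest p values per direction are named; Psmb8, Psmb9, Ctss, Rfx5, Rfxap, H2-M3 and the marker genes named were added after their values were seen. The fit was checked on simulated data: in 10 simulations over 35556 probe sets, 200 of them changed, the calls recovered 23.6% of 1.5-fold and 78% of 2-fold differences and held 5.31% false ones. The changed probe sets were drawn at random from all, with noise independent between probe sets. These shares do not carry over to class II, whose median residual SD was 0.318 against 0.135 for all probe sets. Alternatives were the variance model, array weights, scaling, the probe sets tested, the replicate block and leaving out each mouse. Plots used matplotlib 3.10.9 under Python 3.11.15.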

Additional observations from a re-analysis of the deposited data

How the results depend on the processing

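The number of class I and of class II probe sets called was 0 under all alternatives run, and the lowest adjusted p of any member was 0.789 (limma, array weights). Over all probe sets, 1 was called when only listed probe sets were tested and 1 with a single probe set per gene, against 0 otherwise. The class II median difference lay between 0.053 and 0.431 when 1 mouse was left out, the highest without rapamycin replicate 1, and was 0.346 with array weights. The class I median lay between -0.038 and 0.04. It was -0.001 with the H2-K1 and H2-D1 probe sets added and 0.008 with Nlrc5 averaged to 1 value, and the class II median was 0.203 without H2-Oa, H2-Ob and H2-Ea; these were chosen after seeing the data. Of 20 named members, 17 kept their sign throughout. The sign turned with mice left out for Tap1 (-0.016 to 0.083), B2m (-0.036 to 0.049) and H2-Oa (-0.247 to 0.082); the cause was not tested.

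With the replicate number as a block, 0 probe sets were called, 1462 had an unadjusted p under 0.05 in place of 1385, and the class II median was 0.196. Deviations of same-numbered mice correlated at 0.061, -0.136 and 0.201, so the numbers were not taken to pair mice, and not every mouse correlated best with its own number. With 3 mice per group, the 95% interval lay within 1.5-fold for 3 of 11 class II and 51 of 52 class I probe sets. Without Nlrc5 it did so for 32 of 33 class I probe sets, 21 of which had mean levels above the median of all probe sets.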
